A study of Mus musculus with 16 samples.

Results

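The interaction of radiation with the compound QH-II-066 was measured in mouse melanoma tumours as a difference of differences. For each gene it is the log2 fold change of 5 Gy with QH-II-066 against 5 Gy, minus the log2 fold change of QH-II-066 against untreated. All 16 libraries of the series enter this value, 4 in each of 4 groups, and it was fitted for 16101 of the 46078 genes counted. The tumours grew from B16F10-GP cells, a derivative of the pigmented C57BL/6 mouse melanoma line B16F10, injected with 25% matrigel into the flanks of female C57BL/6 mice aged 6 to 8 weeks. The untreated group had neither agent by its label, while the protocol describes vehicle, and the pair was taken as 1 group. QHII mice had QH-II-066 at 10 mg/kg by intraperitoneal injection on each of 7 days from day 10. 5Gy mice had a single X-ray dose of 5 Gy to the right flank on day 10, and 5Gy_QHII mice had that dose in the morning and the first drug injection the same evening. Neither the flank the profiled tumours came from nor whether each library is a mouse of its own is given in the labels, so the errors below are those between libraries and may be technical. All 4 groups share 1 transplanted cell line, so nothing here speaks of other melanomas.

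Radiation breaks DNA, which activates p53 and its target genes within hours, and over the following days irradiated tumours can gain fibroblasts, new matrix and macrophages. GABA-A receptors are chloride channels opened by the transmitter GABA, and the series' title concerns their enhancement in melanoma cells. When 2 treatments act independently, their fold changes multiply, and the interaction on the log2 scale is 0. A negative value means that the combined group lay below the product of the separate fold changes, and a positive value that it lay above.

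Levels are given in CPM, which are counts scaled to library size. Melanocyte genes that define the line were abundant in every library. Pmel, a melanosome matrix protein, was measured at 4632, 5062, 4985 and 6119 CPM in the untreated libraries, 6166, 5618, 4759 and 4984 CPM with QH-II-066, 4109.5, 3716, 4469 and 4649 CPM after 5 Gy and 5009, 5362, 6135 and 5690.1 CPM after 5 Gy with QH-II-066. Library totals ran from 6994198 counts, in replicate 4 of the combined group, to 40799942 counts, in replicate 1 of the same group. The libraries also differed in transcripts of the surrounding tissue. Summed over 18 genes of skin epithelium, the level was 4.32 to 6.28 CPM untreated, 5.01 to 14.6 CPM with QH-II-066, 4.38 to 4273 CPM after 5 Gy and 16.3 to 2059 CPM after both. The mean log2 CPM of these genes was above 0 in replicates 2 and 4 of the 5 Gy group and in replicates 2, 3 and 4 of the combined group, and below 0 in the other 11 libraries. These markers touch both irradiated groups. Where the median of a gene list turned its sign without those 5 libraries, called skin-bearing below, the value without them is given below.

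No gene passed an adjusted p of 0.05 for the interaction in edgeR's quasi-likelihood test (0 of 16101, 0%; smallest adjusted p = 0.445). Without adjustment, 1121 genes (6.96%) had p under 0.05, of which 870 (5.4% of the genes tested) had a negative and 251 (1.56%) a positive interaction. Negative values thus made up 77.6% of the genes below that mark, while the median over all genes tested was 0.03 and 45.5% of them lay below 0. Other tools called genes where edgeR called none. DESeq2 called 61 genes (0.387% of the 15769 with an adjusted p), 59 of them negative, and limma-voom with sample weights called 497 (3.09%), 440 of them negative. The 2 tools shared 47 calls, all with the same sign. In the weighted fit the sample weights ran from 0.314 to 2.94, the lowest being replicate 4 of the untreated group and the highest replicate 4 of the QHII group.

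The genes with negative interactions had a common shape. Among the 870 at an unadjusted p under 0.05, 847 had a drug effect above 0 without radiation and below 0 with it. Their median log2 difference for QH-II-066 was 0.93 in unirradiated tumours and -0.96 in irradiated ones. Seen from the other side, the median for 5 Gy was 1.72 without drug and -0.15 with it, and 744 of the genes had their highest group mean after 5 Gy alone. Genes with positive interactions had the opposite shape at smaller sizes: 207 of 251 had a drug effect below 0 without radiation and above 0 with it, with medians of -0.18 and 0.41, and none had its highest mean after 5 Gy. These shapes describe the genes chosen by the interaction and are no test of it. Across all genes the 2 drug effects, which share no library, had a Spearman rho of 0.23 and a Pearson r of -0.08, and the same sign in 66.3% of genes. Among the 12218 genes at a mean log2 CPM of 1 or more, rho was 0.42 and the share 71.8%. Genes are not independent replicates, and these values carry no p.

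**Figure D1:**
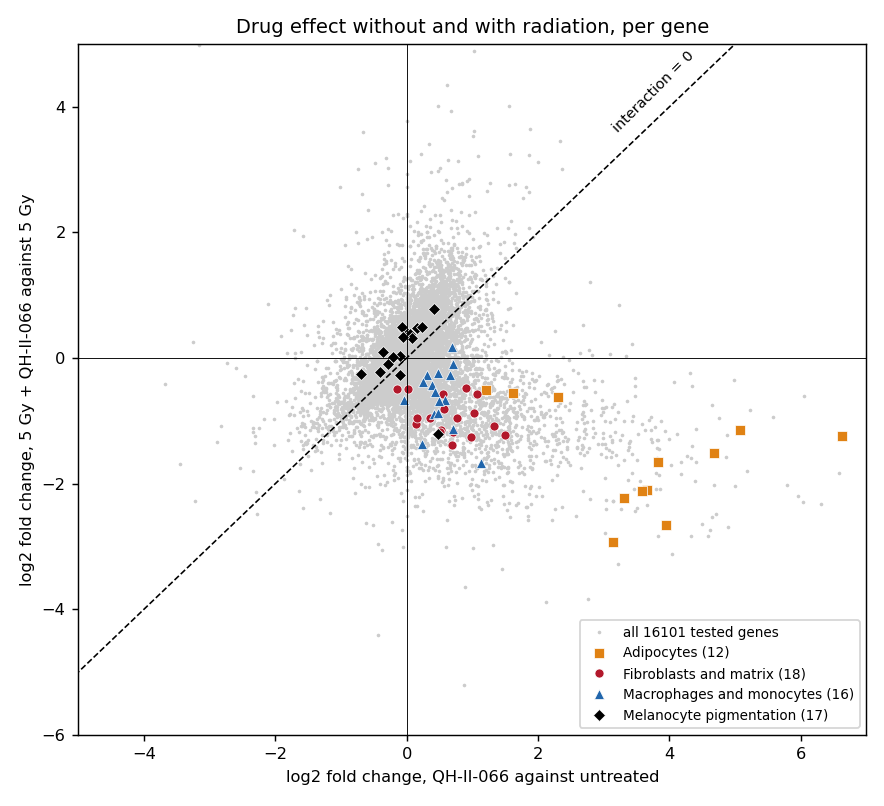
Each point is a gene, with the log2 fold change of QH-II-066 against untreated on the horizontal axis and of 5 Gy with QH-II-066 against 5 Gy on the vertical axis; on the dashed diagonal the interaction is 0, and 2 of the 16101 genes lie outside the axes. The 12 adipocyte, 18 fibroblast and 16 macrophage genes lie below the diagonal, and 15 of the 17 pigmentation genes lie above it.

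Where groups did not overlap at all, the shape was rare. In 7 genes (0.0435%) every QHII library lay above every untreated one and every combined library below every 5 Gy one: Calcrl, Chl1, Ngef, Opn3, Peli2, Rtl3 and Trib2. The reverse arrangement held for 2 genes (0.0124%), Cdk11b and Gm10478. Those of the 9 that are not described below were named after their values had been seen.

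Among genes with a negative interaction, the smallest p at a mean log2 CPM of 1 or more belonged to Chl1, which encodes an adhesion protein related to neural L1, on chromosome 6 (mm10, 103510876 to 103733035, plus strand). It was measured at 0.434, 0.308, 0.160 and 0.598 CPM in the untreated libraries, 1.25, 1.8, 0.890 and 1.57 CPM with QH-II-066, 4.2, 12.8, 3.71 and 9.83 CPM after 5 Gy and 0.730, 1.72, 1.67 and 3.42 CPM after 5 Gy with QH-II-066. The 4 groups formed steps without overlap between untreated and QHII or between 5 Gy and the combined group. Multiplying the separate fold changes would put the combined group at 28 CPM, while its mean was 1.89 CPM. The interaction was -3.94 ± 0.74 (SE; 95% interval -5.5 to -2.37; unadjusted p = 7.43e-05), with an adjusted p of 0.445 in edgeR. With the skin score as a covariate Chl1 was the 1 gene called, at an interaction of -4.08 and an adjusted p of 0.0214 in edgeR.

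Pcsk5, a proprotein convertase that activates secreted precursors, lies on chromosome 19 (17432832 to 17837632, minus strand) and was measured at 0.902, 0.462, 0.352 and 0.809 CPM in the untreated libraries, 1.91, 1.9, 2.22 and 4.38 CPM with QH-II-066, 10, 5.08, 4.79 and 4.88 CPM after 5 Gy and 2.27, 1.33, 2.09 and 4.91 CPM after 5 Gy with QH-II-066. All QHII libraries lay above the untreated ones, while combined and 5 Gy libraries overlapped through replicate 4 of the combined group. Its interaction was -3.31 ± 0.63 (SE; 95% interval -4.65 to -1.96; unadjusted p = 9.59e-05). Npl, the lyase that breaks down sialic acid, lies on chromosome 1 (153503015 to 153550045, minus strand) and was measured at 1.74, 1.46, 1.28 and 2.67 CPM in the untreated libraries, 3.1, 4.17, 2.14 and 5.23 CPM with QH-II-066, 9.82, 15.5, 9.72 and 10.5 CPM after 5 Gy and 3.27, 3.45, 2.92 and 7.29 CPM after 5 Gy with QH-II-066. Every 5 Gy library exceeded every other library, and 3 of the 4 combined libraries lay within the range of the QHII ones. Its interaction was -2.49 ± 0.49 (SE; 95% interval -3.54 to -1.44; unadjusted p = 1.31e-04).

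Receptors of myeloid cells made up 3 of the 10 genes. Fcgr2b, the inhibitory receptor for the Fc part of IgG, lies on chromosome 1 (170958617 to 170976547, minus strand) and was measured at 30.3, 30.3, 27.5 and 33.1 CPM in the untreated libraries, 27.8, 38.6, 32.1 and 44.4 CPM with QH-II-066, 65.7, 71.2, 53.4 and 47.9 CPM after 5 Gy and 35.9, 32.1, 34.9 and 36.9 CPM after 5 Gy with QH-II-066. The 5 Gy libraries stood apart from the other 12, and the combined libraries lay within the QHII range. The interaction was -1.01 ± 0.21 (SE; 95% interval -1.46 to -0.56; unadjusted p = 2.35e-04); the combined mean was 34.9 ± 2.08 CPM (SD, n = 4) against 70.1 CPM by multiplication. Fcrls, an Fc receptor-like gene of macrophages, had an interaction of -3.04 ± 0.66 (SE; 95% interval -4.45 to -1.63; unadjusted p = 3.29e-04), with group means of 2.42, 6.76, 13.3 and 4.53 CPM in the order untreated, QHII, 5 Gy and combined. Csf2rb encodes the signalling subunit shared by the receptors for GM-CSF, IL-3 and IL-5, and its count is uncertain because the mouse has a near-identical copy, Csf2rb2. Its interaction was -1.49 ± 0.33 (SE; 95% interval -2.2 to -0.79; unadjusted p = 3.90e-04), and the combined libraries, at 9.22, 7.17, 8.39 and 10.1 CPM, lay below the 5 Gy libraries, at 16.1, 20.9, 14.3 and 15.4 CPM.

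The other 4 genes of this group act at membranes and in signalling. Itga7, a laminin-binding integrin subunit, had an interaction of -2.11 ± 0.47 (SE; 95% interval -3.1 to -1.12; unadjusted p = 3.72e-04), and its 5 Gy and combined libraries overlapped. Trib2, a pseudokinase that directs proteins to degradation, was measured at 5.55, 5.35, 4.25 and 4.36 CPM in the untreated libraries, 6.52, 5.61, 6.19 and 6.32 CPM with QH-II-066, 8.43, 9.56, 7.36 and 7.6 CPM after 5 Gy and 5.87, 4.62, 5.13 and 4.47 CPM after 5 Gy with QH-II-066. As for Chl1, both drug comparisons separated without overlap and in opposite directions, and the interaction was -1.05 ± 0.23 (SE; 95% interval -1.54 to -0.55; unadjusted p = 4.17e-04). Dab2, a clathrin adaptor of endocytosis, and Cav1, the coat protein of caveolae, had interactions of -1.27 ± 0.29 and -1.36 ± 0.31. In both genes every combined library lay below every 5 Gy library, while untreated and QHII libraries overlapped.

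Positive interactions were smaller. Gm10478, a predicted gene on chromosome 12 (20896239 to 20896638, minus strand), was measured at 3.24, 3.15, 3.23 and 4.26 CPM in the untreated libraries, 2.7, 2.24, 2.06 and 2.81 CPM with QH-II-066, 1.89, 1.91, 2.53 and 2.31 CPM after 5 Gy and 3.08, 3.37, 3.97 and 4.47 CPM after 5 Gy with QH-II-066. QHII libraries lay below all untreated ones and combined libraries above all 5 Gy ones, and the interaction was 1.28 ± 0.31 (SE; 95% interval 0.63 to 1.92; unadjusted p = 7.65e-04). Pgpep1, a peptidase that removes pyroglutamate from peptide ends, lies on chromosome 8 (70646436 to 70659738, minus strand) and was measured at 55.3, 52, 52.9 and 56.6 CPM in the untreated libraries, 56.1, 47.2, 53 and 47.7 CPM with QH-II-066, 40.2, 39.9, 41.4 and 44.6 CPM after 5 Gy and 54, 50.9, 55.4 and 61.8 CPM after 5 Gy with QH-II-066. The 5 Gy libraries were the 4 lowest of the 16, and the combined libraries lay around the untreated ones. Its interaction was 0.51 ± 0.13 (SE; 95% interval 0.23 to 0.78; unadjusted p = 0.00138), and this gene and Gm10478 were the 2 positive calls of DESeq2.

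The remaining 8 of these 10 genes had the same low point after 5 Gy. Their interactions were 0.52 ± 0.14 for Ap5z1, a subunit of the AP-5 vesicle adaptor, 2.0 ± 0.57 for the unnamed transcript C130036L24Rik, 0.66 ± 0.19 for Brs3, an orphan receptor related to bombesin receptors, and 0.56 ± 0.17 for Afg1l, a mitochondrial ATPase. They were 0.71 ± 0.21 for Aph1c, a subunit of gamma-secretase, 0.85 ± 0.25 for Klhdc8b, a kelch-domain protein, 0.52 ± 0.16 for Evc, a protein of the primary cilium, and 0.42 ± 0.13 for Lman2l, a lectin of the early secretory pathway. Every combined library exceeded every 5 Gy library in 7 of these 8, Lman2l being the exception. The share of all genes with that separation was not counted. Leaving out each library in turn changed the sign of none of the 20 genes. Chl1 ran from -4.34 to -3.57, Fcgr2b from -1.11 to -0.88 and Pgpep1 from 0.45 to 0.55. The 20 genes were chosen by their p in these same libraries, so neither result is a test of their interactions.

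**Figure D2:**
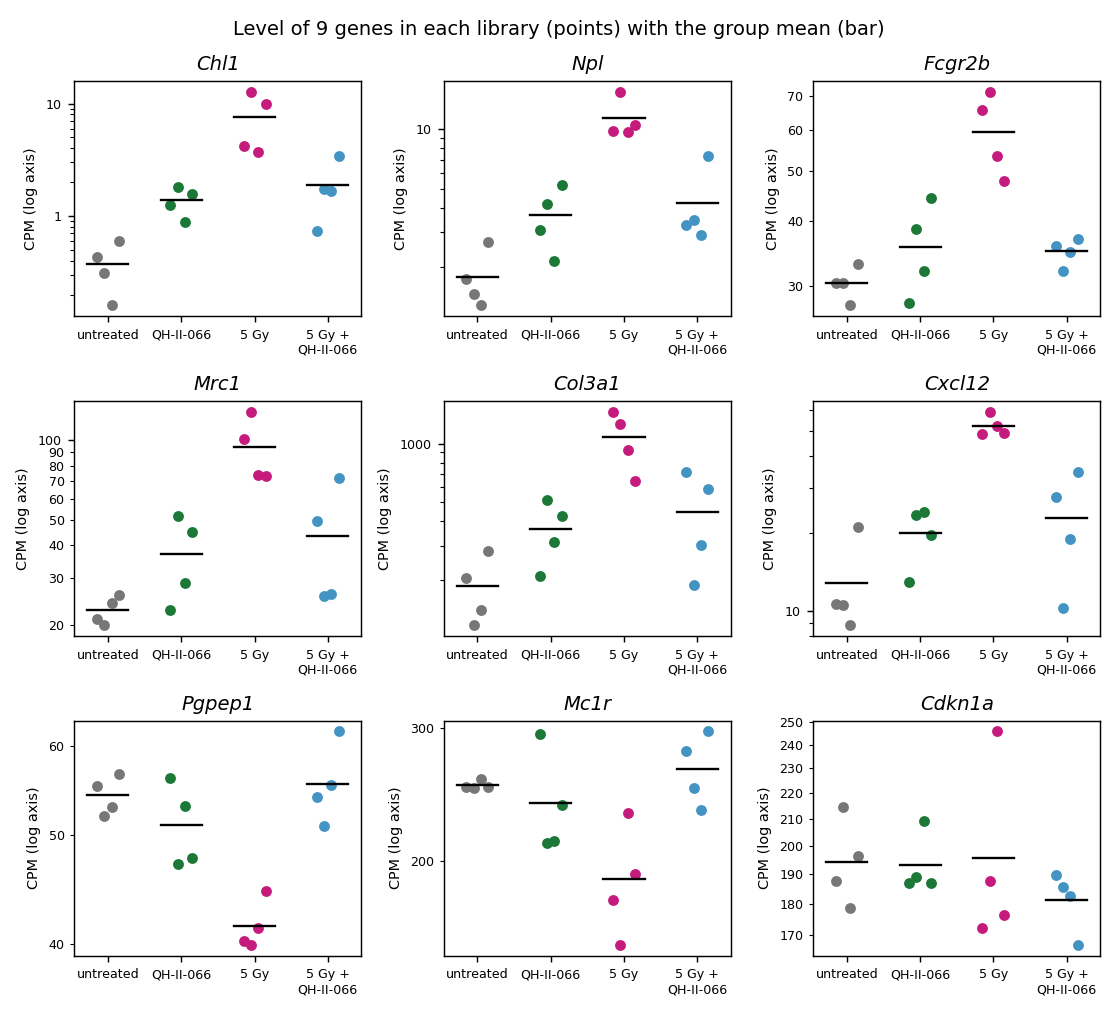
CPM on a log axis in each library for 9 genes, by group, with a bar at the group mean. In the first 6 panels (Chl1, Npl, Fcgr2b, Mrc1, Col3a1, Cxcl12) the 5 Gy group has the highest mean, in Pgpep1 and Mc1r it has the lowest, and in Cdkn1a the 4 groups overlap.

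**Figure D3:**
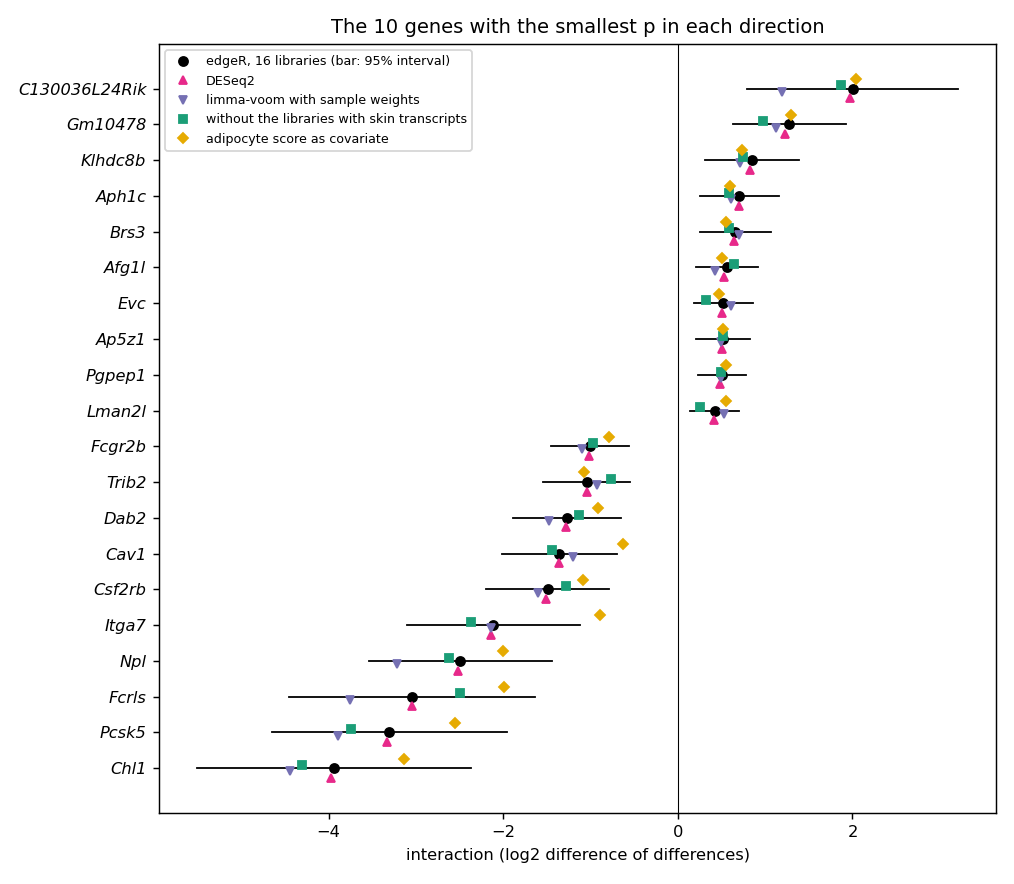
Interaction in log2 units for the 10 genes with the smallest p in each direction, with the edgeR value and its 95% interval and the value under 4 other fits. Every fit drawn keeps the sign of the edgeR value; for Itga7 the adipocyte covariate gives -0.89 against -2.11.

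Fibroblast and matrix genes had negative interactions throughout. All 18 had a negative value, with a median of -1.65 against 0.03 over all genes. An unadjusted p under 0.05 was found for 16, against 5.4% of all genes in that direction, and none was called after adjustment in edgeR. The counts of the lists below stand beside that share, or beside 1.56% for positive values. In bulk tissue, fewer cells of a type and less RNA per cell cannot be told apart. The list score, the mean log2 CPM of its genes, was 4.69 ± 0.34 untreated, 5.34 ± 0.46 with QH-II-066, 6.63 ± 0.43 after 5 Gy and 5.64 ± 0.66 after both (mean ± SD, n = 4). By library it was 6.97, 7.02, 6.32 and 6.2 after 5 Gy and 6.27, 4.88, 5.31 and 6.1 after both. Replicate 1 of the combined group lay just above the lowest 5 Gy library and the other 3 lay below all 5 Gy libraries. The median effect of 5 Gy on these genes was 1.92 without drug and 0.34 with it, on the log2 scale.

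Collagens carried large counts. Col3a1, the chain of type III collagen, lies on chromosome 1 (45311538 to 45349706, plus strand) and was measured at 205, 118, 141 and 283 CPM in the untreated libraries, 211, 517, 313 and 425 CPM with QH-II-066, 1457, 1265, 932 and 643 CPM after 5 Gy and 718, 189, 305 and 582 CPM after 5 Gy with QH-II-066. Multiplication of the separate fold changes gives 2109 CPM for the combined group, whose mean was 448 ± 244 CPM (SD, n = 4). Replicate 1 of the combined group lay above the lowest 5 Gy library, so these groups overlapped. Its interaction was -2.23 ± 0.58 (SE; 95% interval -3.47 to -1.0; unadjusted p = 0.00150). Col1a1, a chain of type I collagen, had -1.66 ± 0.52, and Fbn1, the microfibril protein fibrillin, -2.08 ± 0.50. The matrix proteoglycans Dcn and Lum had -2.41 ± 0.76 and -2.71 ± 0.88, and the fibroblast receptor Pdgfra had -1.88 ± 0.60. Pdgfrb and Sparc, which pericytes and many tumour cells also express, were the 2 members above the unadjusted mark, at -0.51 ± 0.34 and -0.35 ± 0.29.

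The count for this list depended on the libraries used. Without the 5 libraries with skin transcripts, which leaves 2 libraries of 5 Gy and 1 of the combined group, the median was -0.98, with 18 of 18 negative and 4 at an unadjusted p under 0.05. With the adipocyte score as a covariate it was -1.24, with 5 at that mark and 18 negative. Leaving out any 1 library kept the median between -1.85 and -1.38 and the count between 13 and 16. DESeq2 called 2 of the 18 and the weighted limma-voom fit 16, against 0.387% and 3.09% of all genes.

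The TGF-beta response, which drives matrix production and myofibroblast formation, held 6 of 15 genes at an unadjusted p under 0.05, all with negative interactions, and had a median of -0.56. Fst, the activin-binding protein follistatin, had -3.33 ± 0.83. The latent TGF-beta binding proteins Ltbp2 and Ltbp1 had -2.15 ± 0.63 and -1.89 ± 0.61, and the contractile proteins Tagln and Acta2 had -1.25 ± 0.35 and -0.99 ± 0.38. The ligands themselves had -0.42 ± 0.22 for Tgfb1, -0.02 ± 0.25 for Tgfb2 and 0.01 ± 0.22 for Tgfb3. Without the skin-bearing libraries 3 of 15 genes were at the mark (median -0.40), and with the adipocyte covariate 4 were (median -0.85).

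Endothelial genes had a median of -0.61, and 4 of 13 had a negative interaction at an unadjusted p under 0.05. Tek, the angiopoietin receptor, had -1.67 ± 0.59, and Kdr, the main VEGF receptor of vessels, -0.89 ± 0.32. The junction proteins Pecam1 and Esam had -0.79 ± 0.31 and -0.61 ± 0.29. Vwf and Eng had positive values, 0.45 ± 0.43 and 0.15 ± 0.22. With the adipocyte covariate, or without the libraries with skin transcripts, 1 member was at the unadjusted mark in each fit, and without replicate 1 of the 5 Gy group 2.

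Macrophage genes were negative too. All 16 had a negative interaction, the median was -0.95, and 9 had an unadjusted p under 0.05. The list score was 4.61 ± 0.43 untreated, 5.13 ± 0.42 with QH-II-066, 5.8 ± 0.42 after 5 Gy and 5.14 ± 0.45 after both (mean ± SD, n = 4). By library it was 5.88, 6.36, 5.5 and 5.46 after 5 Gy and 5.51, 4.63, 4.89 and 5.54 after both, so the 2 lower 5 Gy libraries overlapped the 2 higher combined ones.

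Mrc1, the mannose receptor CD206 of tissue macrophages, lies on chromosome 2 (14229392 to 14332057, plus strand) and was measured at 21.1, 19.9, 24.2 and 25.8 CPM in the untreated libraries, 22.7, 51.6, 28.6 and 45 CPM with QH-II-066, 101, 128, 74.1 and 73.4 CPM after 5 Gy and 49.2, 25.7, 26.1 and 71.7 CPM after 5 Gy with QH-II-066. All 5 Gy libraries exceeded all combined ones, by a narrow margin, and the interaction was -1.84 ± 0.46 (SE; 95% interval -2.81 to -0.86; unadjusted p = 0.00111). Cd163, the scavenger receptor for haemoglobin, was measured at 2.21, 1.15, 1.31 and 2.11 CPM in the untreated libraries, 2.21, 4.78, 3.23 and 4.67 CPM with QH-II-066, 15, 42.7, 11.5 and 13.7 CPM after 5 Gy and 4.06, 2.59, 4.72 and 15.6 CPM after 5 Gy with QH-II-066. QHII and untreated libraries met at 2.21 CPM, replicate 2 of the 5 Gy group was the highest library by far, replicate 4 of the combined group lay among the 5 Gy libraries, and the interaction was -2.8 ± 0.76 (SE; 95% interval -4.41 to -1.19; unadjusted p = 0.00207). Itgam and Adgre1, which encode CD11b and F4/80, had -1.6 ± 0.57 and -1.31 ± 0.45, and Csf1r, the receptor for the growth factor M-CSF, had -1.35 ± 0.49. Lyz2, the lysozyme of myeloid cells, had -0.96 ± 0.38. The complement genes C1qa, C1qb and C1qc, also made by macrophages, had smaller values of -0.50 ± 0.65, -0.79 ± 0.59 and -0.71 ± 0.58 and did not reach the unadjusted mark.

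The macrophage values were sensitive to the same libraries. Without the 5 libraries with skin transcripts the median was -0.53, 11 of 16 genes were negative and 2 reached the unadjusted mark. With the adipocyte covariate the median was -0.65, with 16 negative and 4 at the mark. Without replicate 2 of the 5 Gy group the count was 6, and without replicate 4 of the untreated group it was 12. In the weighted limma-voom fit all 16 genes were negative, 15 were at the mark and 6 were called, against 3.09% of all genes called. DESeq2 called 1 of the 16, against 0.387% of all genes.

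Dendritic cell genes had a median of -0.86, with 11 of 12 negative. The members at an unadjusted p under 0.05 were 3: Cd209a, a lectin of monocyte-derived dendritic cells, at -2.41 ± 0.89, Flt3, the receptor that drives their development, at -1.67 ± 0.66, and Ccr7, which guides migration to lymph nodes, at -1.3 ± 0.53. Without replicate 4 of the QHII group the count was 1, and without replicate 1 of that group it was 6. The median was -0.29 without the skin-bearing libraries, with 9 genes negative and 1 at the mark. It was -0.15 with the adipocyte covariate, with 7 negative and 0 at the mark, and -1.24 in the weighted limma-voom fit, with 12 negative and 8 at the mark. Neutrophil genes split, with 3 of 7 positive. S100a9 and S100a8, the abundant calprotectin subunits, had 1.97 ± 1.51 and 1.13 ± 1.72, while the receptors Csf3r and Cxcr2 had -0.84 ± 0.55 and -1.34 ± 1.47.

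Host tissues around the graft had interactions of large size and large error. Adipocyte genes had a median of -5.72, all 12 were negative and 11 had an unadjusted p under 0.05. Without replicate 3 of the QHII group the median was -4.12 and 6 members were at that mark, and without the libraries with skin transcripts the values were -8.56 and 7. Adipoq, the fat-cell hormone adiponectin, was measured at 8.19, 0, 0.544 and 0.739 CPM in the untreated libraries, 0.857, 7.71, 112 and 25.8 CPM with QH-II-066, 13.3, 29, 8.03 and 10.3 CPM after 5 Gy and 0.568, 0.588, 1.88 and 8.34 CPM after 5 Gy with QH-II-066. Replicate 3 of the QHII group stood far above all others, and the interaction was -6.61 ± 2.05 (SE; 95% interval -11.0 to -2.22; unadjusted p = 0.00606). Fabp4, the fatty acid carrier of fat cells that macrophages and vessels also express, had -2.91 ± 0.78. The adipocyte list score was 2.42, -1.47, 0.34 and 0.84 in the untreated libraries, 0.11, 2.54, 6.04 and 4.25 with QH-II-066, 3.32, 5.15, 2.76 and 3.88 after 5 Gy and 0.01, 0.80, 2.04 and 4.07 after both. Its group means followed the shape of the genes above, with the summed level of the 12 genes at 85.6 to 219 CPM untreated, 144 to 2141 CPM with drug, 324 to 1204 CPM after 5 Gy and 119.9 to 642 CPM after both. With this score as a covariate, a setting chosen after the data had been seen, 483 genes had an unadjusted p under 0.05 in place of 1121, 287 of them negative. The score itself had an interaction of -4.75, with a pooled within-group SD of 1.81. This covariate therefore overlaps the contrast being tested, and the 2 cannot be told apart in any value given with it.

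Skeletal muscle genes had a median of -3.87, with 0 of 15 at the unadjusted mark, and summed levels of 11.2 to 149.9 CPM untreated, 13.9 to 1648 CPM with drug, 13.8 to 3325 CPM after 5 Gy and 18.5 to 1571 CPM after both. Without replicate 4 of the QHII group the median turned to 0.62. Casq1, the calcium store protein of muscle, had -4.0 ± 1.97. Skin epithelium genes had a median of -1.41 with none of 17 at the mark, while the interaction of their list score was 0.99, of the opposite sign; errors such as -3.03 ± 3.19 for Trp63, the transcription factor of basal skin cells, cover both. Leaving out the skin-bearing libraries turned that median to 1.35. Without the 5 libraries with skin transcripts 398 genes had an unadjusted p under 0.05, 327 of them negative. The part of fat, muscle and skin transcripts in the interactions of other genes was not tested.

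**Figure D4:**
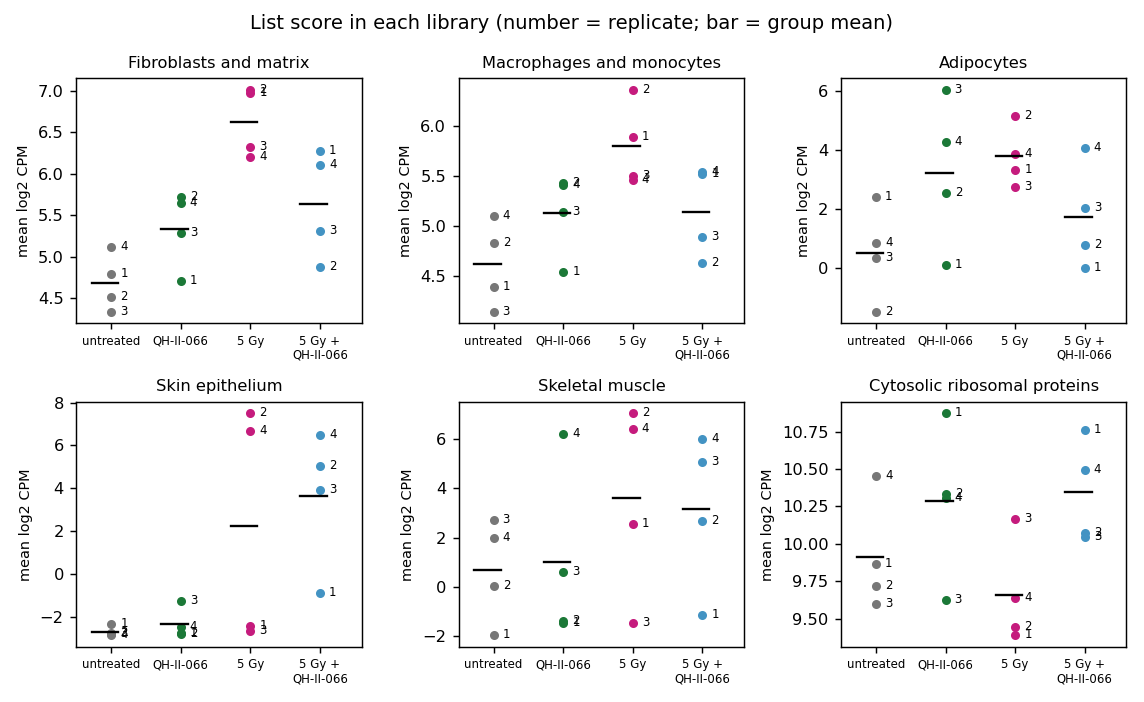
List score, the mean log2 CPM of a list's tested genes, in each library of 6 lists, with the replicate number beside each point and a bar at the group mean. Fibroblast and macrophage scores are highest after 5 Gy; the mean adipocyte score is 3.23 in the QHII and 3.78 in the 5 Gy group, against 0.53 untreated and 1.73 after both; skin scores above 0 occur in 2 of the 5 Gy and 3 of the combined libraries.

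**Figure D5:**
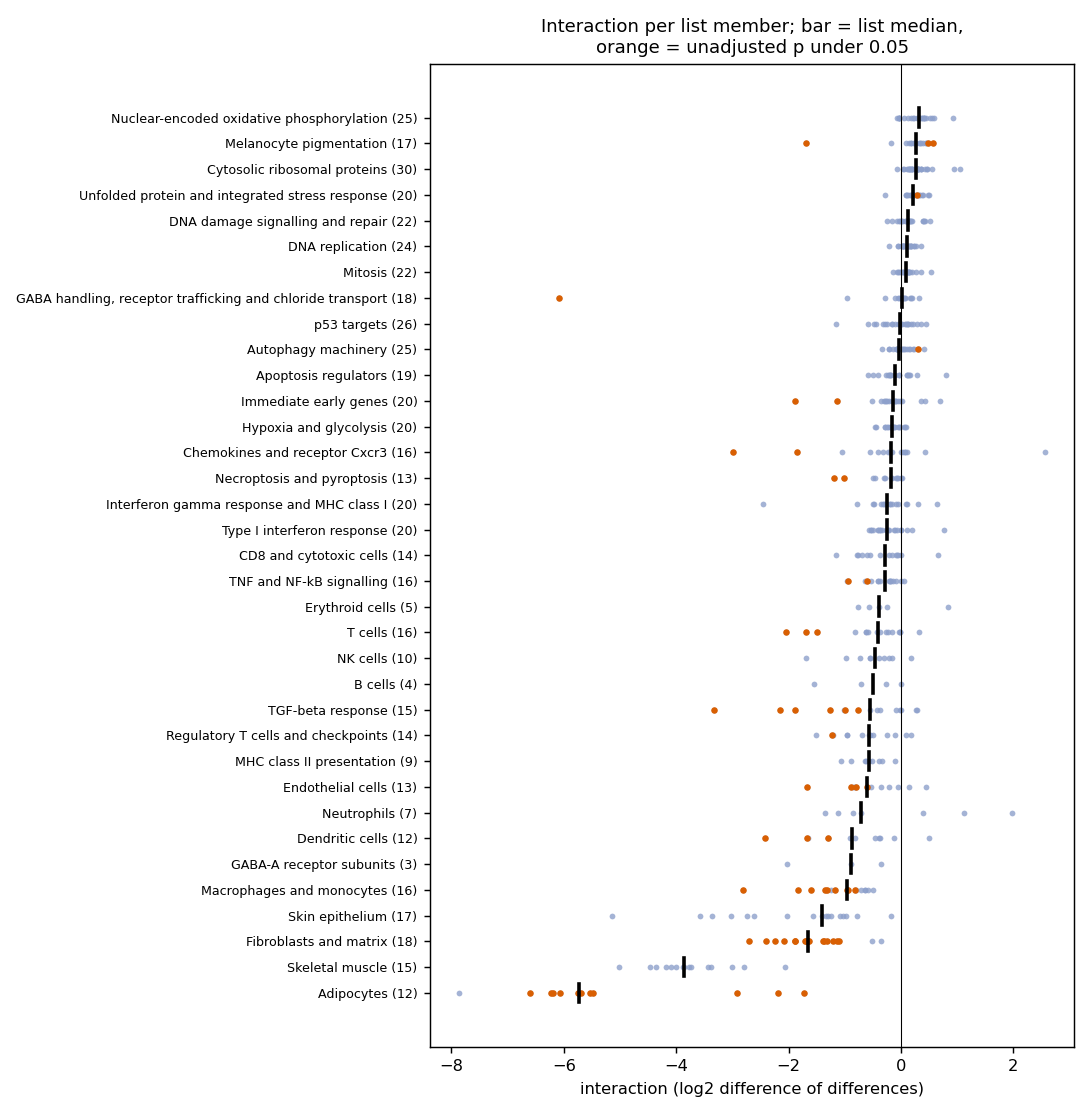
Interaction in log2 units of every tested member of 35 lists, with a bar at each list's median and the number of tested members in parentheses; members at an unadjusted p under 0.05 are orange. Adipocytes (-5.72), skeletal muscle (-3.87) and fibroblasts (-1.65) have the lowest medians, and nuclear-encoded oxidative phosphorylation (0.32) the highest.

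Lymphocyte genes had weaker and less certain values. T cell genes had a median of -0.40 and 3 of 16 at an unadjusted p under 0.05, against 5.4% of all genes with negative values. Among the 3 were the costimulatory receptor Cd28 at -1.68 ± 0.65 and the receptor chain Cd247 at -1.49 ± 0.66. Without replicate 2 of the 5 Gy group 1 member was at that mark and the median was -0.05. Cd3e, part of the T cell receptor complex, was measured at 1.74, 4.19, 2.59 and 3.45 CPM in the untreated libraries, 1.12, 2.91, 3.84 and 4.54 CPM with QH-II-066, 3.88, 6.61, 1.55 and 2.51 CPM after 5 Gy and 3.65, 2.86, 1.61 and 3.57 CPM after 5 Gy with QH-II-066. The 4 groups overlapped, and its interaction of -0.38 ± 0.67 had an interval of -1.8 to 1.04. Among cytotoxic genes, with none of 14 at the unadjusted mark, Cd8a had -0.69 ± 0.54, the pore protein Prf1 -0.76 ± 0.69, the protease Gzmb -0.09 ± 0.63, the cytokine Ifng -0.37 ± 0.75 and the death ligand Fasl -1.15 ± 0.82. NK cell genes had a median of -0.46 with none of 10 at the mark, and the receptors Klra4 and Klrk1 had -1.69 ± 1.14 and -0.97 ± 0.66. Only 4 of 10 B cell genes were tested, Bank1 at -1.54 ± 0.93 and Cd79b at -0.72 ± 0.99 among them. Medians turned positive without the skin-bearing libraries, at 0.25 for T cell, 0.46 for cytotoxic, 0.18 for NK and 0.10 for B cell genes, and the values of Cd3e, Cd8a, Prf1, Gzmb and Ifng were positive, so no direction can be given for these genes. The adipocyte covariate gave 0.06 for T cell and 0.13 for B cell genes, while the weighted limma-voom fit gave -0.91 and -1.07. For cytotoxic genes that limma-voom fit gave -1.04, with 5 of 14 at the mark. It gave -1.27 for NK genes, with 6 of 10 at the mark and 1 called, against 3.09% of all genes called.

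Regulatory and checkpoint genes had 12 of 14 values below 0 and a median of -0.57. At the unadjusted mark was 1 of the 14, against 5.4% of all genes with negative values. With the adipocyte covariate the median turned to 0.21 and 5 of 14 were below 0, and without the skin-bearing libraries 8 were. Ctla4, the inhibitory receptor on activated and regulatory T cells, had -1.22 ± 0.46 (SE; 95% interval -2.19 to -0.24; unadjusted p = 0.0176). Tigit, Pdcd1 (PD-1), Foxp3 and Cd274 (PD-L1) had -1.5 ± 0.73, -0.58 ± 0.70, -0.55 ± 1.02 and -0.69 ± 0.38. Cd274 was measured at 46.8, 50.5, 41.8 and 54.1 CPM in the untreated libraries, 31, 42.6, 87.6 and 53.6 CPM with QH-II-066, 69.6, 81.6, 41 and 49.9 CPM after 5 Gy and 44.5, 34.1, 41.7 and 47.2 CPM after 5 Gy with QH-II-066, and its groups overlapped.

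Of the chemokine genes, 2 of 16 were at the unadjusted mark, against 5.4% of all genes with negative values. Cxcl12, which fibroblasts and vessels make and which retains CXCR4-bearing cells, was measured at 10.6, 10.6, 8.79 and 21.1 CPM in the untreated libraries, 13, 23.6, 24.2 and 19.6 CPM with QH-II-066, 48.6, 59.3, 51.9 and 49 CPM after 5 Gy and 27.7, 10.2, 19.1 and 34.7 CPM after 5 Gy with QH-II-066. The 5 Gy libraries lay above the other 12, and multiplication would place the combined group at 82.1 CPM against a mean of 22.9 ± 10.6 CPM (SD, n = 4). Its interaction was -1.85 ± 0.47 (SE; 95% interval -2.85 to -0.86; unadjusted p = 0.00122). Cxcl13, which attracts B cells, had -2.99 ± 1.27. The interferon-induced ligands of CXCR3 had -0.55 ± 0.38 for Cxcl9 and 0.03 ± 0.45 for Cxcl10. The list's median was -0.17, and Cxcl12 and Cxcl13 were its 2 members at the mark. Without the skin-bearing libraries the median turned to 0.17, with 8 of 16 negative. With the adipocyte covariate it was -0.53, with 12 negative and 2 at the mark. The weighted limma-voom fit gave -0.82, with 13 negative and 7 at the mark. That fit called 3, against 3.09% of all genes, and DESeq2 called 1, against 0.387%.

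With all 16 libraries, interferon genes had no member at an unadjusted p under 0.05 in edgeR without covariates. This held for 20 genes of the type I response (median -0.25) and 20 of the interferon gamma response (median -0.24). The sign of both medians turned between fits. Without the skin-bearing libraries they were 0.13, with 8 of 20 type I genes negative, and 0.29, with 4 of 20 gamma genes negative. With the adipocyte covariate they were 0.29, with 1 negative, and 0.18, with 7 negative. In the weighted limma-voom fit they were -0.24, with 18 negative, and -0.58, with 20 negative and 6 at the mark. Isg15, Stat2 and Ifit2 had 0.20 ± 0.58, -0.56 ± 0.34 and -0.53 ± 0.33. The MHC class I chain H2-K1 had -0.19 ± 0.33, with an interval of -0.89 to 0.50. Gbp5, a guanylate-binding protein, and Ido1, the tryptophan-degrading enzyme, had -0.78 ± 0.51 and -2.46 ± 1.28. All 9 MHC class II genes were negative, with a median of -0.58, and their regulator Ciita had -0.89 ± 0.61 and H2-Oa -1.06 ± 0.71. That direction did not hold without the skin-bearing libraries, where the class II median was 0.24 and 3 of 9 were negative. The class II median was -0.07, with 5 negative, under the adipocyte covariate. In the weighted limma-voom fit it was -1.07, with 9 negative, 6 at the mark and 1 called. In the TNF and NF-kB list 2 of 16 reached the unadjusted mark, against 5.4% of all genes with negative values. They were the inhibitor Tnfaip3 at -0.61 ± 0.26 and the adhesion molecule Icam1 at -0.93 ± 0.44. Without replicate 2 of the 5 Gy group the count was 0. The list's median was -0.29, and -0.26 without the skin-bearing libraries. The adipocyte covariate turned that median to 0.05, and the weighted limma-voom fit gave -0.48, with 8 at the mark and 2 called. Of 13 necroptosis and pyroptosis genes, the kinase Ripk3 had -1.19 ± 0.37 and the protease Casp1 -1.01 ± 0.47, the 2 at that mark. Without the skin-bearing libraries Ripk3 had -0.58 and Casp1 -0.15, and the list's median turned from -0.18 to 0.25, with 4 of 13 negative. The weighted limma-voom fit gave -0.48, with 12 negative and 2 called. In that fit 3.09% of all genes were called, and 1800 of 16101 had negative values at the unadjusted mark.

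Pigmentation genes, which mark the melanoma cells themselves, had mostly positive values. Of 17 genes 15 were positive, with a median of 0.27, and the list score was 8.53 ± 0.16, 8.48 ± 0.06, 8.38 ± 0.10 and 8.46 ± 0.20 in the order untreated, QHII, 5 Gy and combined (mean ± SD, n = 4). Mc1r, the melanocortin receptor that switches on dark pigment, was measured at 251, 250.0, 257 and 251 CPM in the untreated libraries, 294, 211, 212 and 238 CPM with QH-II-066, 178, 155, 232 and 192 CPM after 5 Gy and 279.8, 249.5, 234 and 297 CPM after 5 Gy with QH-II-066. Every combined library lay above every 5 Gy library, though replicate 3 of both groups nearly met, and the interaction was 0.57 ± 0.19 (SE; 95% interval 0.16 to 0.97; unadjusted p = 0.00952). Dct, an enzyme of melanin synthesis, had 0.49 ± 0.22, also at an unadjusted p under 0.05, and Pmel and Mlana had 0.34 ± 0.19 and 0.36 ± 0.40. Without the libraries with skin transcripts the list's median was 0.11, with 6 of 17 genes negative. The weighted limma-voom fit gave 0.40, with 1 negative. There 7 positive values and 1 negative value were at the mark, and 0 were called. The adipocyte covariate gave 0.19 with 6 negative. Ednrb, the endothelin receptor of melanocytes that vessels and stroma also express, had -1.69 ± 0.54. It was 1 of the 2 negative members in edgeR with all 16 libraries and no covariates. It was measured at 26.2, 45.1, 26.7 and 14.4 CPM after 5 Gy and 11.3, 6.94, 9.76 and 21.4 CPM after both.

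The p53 pathway, the textbook response to radiation, had a median of -0.01 over 26 targets. None was at an unadjusted p under 0.05 in edgeR with all 16 libraries and no covariates. In the weighted limma-voom fit 3 were at that mark with negative and 3 with positive values. There 1 was called, and the median was 0.10. Cdkn1a, the cell cycle inhibitor p21, was measured at 188, 214, 179 and 196 CPM in the untreated libraries, 187, 189, 209 and 187 CPM with QH-II-066, 172, 187, 246 and 176 CPM after 5 Gy and 189.6, 186, 183 and 167 CPM after 5 Gy with QH-II-066. The groups overlapped, and the interaction of -0.10 ± 0.16 had an interval of -0.44 to 0.24, which leaves out a 1.5-fold departure in either direction. Mdm2, the ligase that degrades p53, had -0.01 ± 0.18 (interval -0.40 to 0.37), and the death effector Bax 0.29 ± 0.37 (interval -0.50 to 1.08). The polo-like kinase Plk2 and the death receptor Fas had the smallest p of the list, at -0.44 ± 0.23 and -1.15 ± 0.62. Apoptosis regulators had a median of -0.10 with none of 19 at the mark (0.06 in the weighted limma-voom fit), Bmf at -0.49 ± 0.43 and Bcl2a1b, which has near-identical copies, at 0.81 ± 0.63.

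Repair and cell division genes had small medians that took either sign between fits, and with all 16 libraries none reached an unadjusted p under 0.05 in edgeR without covariates. The medians were 0.12 for 22 repair genes, 0.11 for 24 replication genes and 0.09 for 22 mitotic genes. Without the skin-bearing libraries the repair median was -0.14, with 14 genes negative, and the mitotic median -0.13, with 13 negative. The adipocyte covariate changed signs too: the replication median was -0.09, with 17 negative, and the mitotic median -0.10. In the weighted limma-voom fit the repair, replication and mitotic medians were 0.30, 0.19 and 0.17, with 1, 3 and 0 genes negative. There 6, 3 and 2 genes were at an unadjusted p under 0.05, all positive, and 0 were called. Lig4, the ligase of end joining, and Rad52, of homologous repair, had 0.51 ± 0.25 and 0.40 ± 0.23. Mcm5, a subunit of the replicative helicase, and Lig1, the ligase of replication, had 0.27 ± 0.17 and 0.24 ± 0.17. Mki67, the proliferation marker Ki-67, was measured at 330.2, 360.4, 429 and 278 CPM in the untreated libraries, 289, 279, 284 and 272 CPM with QH-II-066, 359, 291, 279.7 and 289.6 CPM after 5 Gy and 290.0, 303, 282 and 309.6 CPM after 5 Gy with QH-II-066, with an interaction of 0.27 ± 0.17, and Birc5, a mitotic inhibitor of apoptosis, had 0.54 ± 0.43. The 95% interval of each gene named here included 0.

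The subunits of the GABA-A receptor were scarce. Of 19 subunit genes 3 had counts enough to be tested. Gabra3, an alpha subunit, was measured at 0.301, 0.0385, 0.192 and 0.422 CPM in the untreated libraries, 0.231, 1.27, 1.05 and 0.876 CPM with QH-II-066, 1.49, 2.35, 1.01 and 0.577 CPM after 5 Gy and 1.65, 0.0784, 0.597 and 2.68 CPM after 5 Gy with QH-II-066. All 5 Gy libraries lay above all untreated ones, the other groups overlapped, and replicates 2 and 4 of the combined group differed by more than 10-fold. The interaction was -2.02 ± 1.14 (SE; 95% interval -4.45 to 0.41; unadjusted p = 0.0974). Gabrb1 and Gabrd had -0.89 ± 1.08 and -0.36 ± 0.72. The median of the 3 was -0.89. Without the skin-bearing libraries it turned to 0.10, and 1 of the 3 was negative. Gabra5 had 0 counts in all 16 libraries, so an interaction was not measurable at this depth. A count of 0 allows up to 3 counts, which is between 0.0735 and 0.429 CPM in single libraries, for counting error only.

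Among 18 tested genes of GABA handling, receptor trafficking and chloride transport the median was 0.02, and -0.13 without the skin-bearing libraries. Slc6a13, a GABA transporter, was the 1 member at an unadjusted p under 0.05, with -6.09 ± 2.24 (SE; 95% interval -10.85 to -1.33; unadjusted p = 0.0155), but its libraries held 0 to 1.35 CPM and 7 of 16 were at 0, so the fitted value depends on the prior count. Slc12a2, the chloride importer NKCC1, had -0.95 ± 0.55, and Gabarapl1, which takes part in receptor trafficking and autophagy, had -0.11 ± 0.20 (interval -0.54 to 0.32). Autophagy genes had a median of -0.04, with the phosphoinositide-binding protein Wipi2 at 0.30 ± 0.13 as the 1 of 25 at the mark, and Atg16l1 at 0.24 ± 0.14.

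Housekeeping programmes had positive medians, and these depended on the fit. Genes of the unfolded protein and integrated stress response were positive in 19 of 20, with a median of 0.21; Edem1, of degradation from the endoplasmic reticulum, had 0.29 ± 0.13 at an unadjusted p under 0.05 and the chaperone Hsp90b1 0.40 ± 0.21. Ribosomal protein genes were positive in 29 of 30 (median 0.26; Rplp1 0.95 ± 0.61, Rplp2 1.05 ± 0.69), and respiratory chain genes in 20 of 25 (median 0.32; Ndufa2 0.94 ± 0.64, Uqcrq 0.56 ± 0.49), none at the mark. Mean scores of both lists were higher in the 2 groups given drug; for ribosomal genes they were 9.91 ± 0.38 untreated, 10.28 ± 0.51 with QH-II-066, 9.66 ± 0.35 after 5 Gy and 10.34 ± 0.34 after both (SD, n = 4). A property of the libraries moved with them: the slope of a library's log2 CPM on log2 gene length, which can follow RNA quality, was 0.0676 ± 0.175 untreated, -0.0881 ± 0.158 with QH-II-066, 0.109 ± 0.112 after 5 Gy and -0.0883 ± 0.120 after both (mean ± SD, n = 4). With this slope as a covariate, chosen after the data had been seen, the medians were 0.17 for ribosomal and 0.24 for respiratory chain genes, and 4 ribosomal and 5 respiratory chain genes reached the mark with positive values. With the adipocyte covariate the ribosomal median was -0.23, with 23 of 30 negative, the respiratory chain median -0.07, with 16 of 25 negative, and the stress response median 0.01, with 10 of 20 negative. In the weighted limma-voom fit 15 of 30 ribosomal, 6 of 25 respiratory chain and 5 of 20 stress response genes were negative. The stress response median was 0.25 there, with 6 positive values at the mark and 0 called. Leaving out the skin-bearing libraries gave medians of 0.55 for ribosomal, 0.49 for respiratory chain and 0.27 for stress response genes. In that fit 0, 4 and 3 genes were negative. Hypoxia and glycolysis genes were negative in 17 of 20, with Pfkfb3 at -0.43 ± 0.32 and Bnip3 at -0.46 ± 0.36. Their median of -0.16 became 0.02 without replicate 3 of the 5 Gy group and 0.02 in the weighted limma-voom fit, where 7 of 20 were negative. It was further below 0 in other fits. The adipocyte covariate gave -0.51, with 18 negative and 5 at the mark, and leaving out the skin-bearing libraries gave -0.30, with 19 negative. Immediate early genes had 2 of 20 at the mark, against 5.4% of all genes with negative values. They were the transcription factors Klf4 at -1.89 ± 0.80 and Egr2 at -1.14 ± 0.50. The list's median was -0.15, and -0.05 without the skin-bearing libraries. Red cell genes had none, with Alas2 at -0.76 ± 0.76 and Hbb-bs, whose copies share reads, at -0.57 ± 0.71.

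The precision of the design sets what these values can show. The median standard error of an interaction was 0.34 on the log2 scale, against 0.24 and 0.24 for the drug effect with and without radiation, and 0.28 among genes at a mean log2 CPM of 1 or more. For 8210 genes (51%) the 95% interval lay within -1 to 1, and for 12230 (76%) within -2 to 2. A missed threshold does not show that 2 treatments acted independently on a gene. The number of genes at an unadjusted p under 0.05 depended on single libraries, at 669 without replicate 2 of the 5 Gy group and 1729 without replicate 1 of the QHII group, and negative values were the majority in both.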

How the data were processed

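Per the submitters' processing notes, the authors' processing named STAR 2.4.1a, featureCounts, edgeR and the mm10 genome; per the file headers, featureCounts 1.6.0 counted read pairs over exons with no strand option. The deposited values are whole-number counts per gene, without normalization, and the libraries came from transcriptome capture, per the labels' protocols. Without strand, reads of overlapping genes on opposite strands cannot be separated. Groups came from the titles, and symbols were matched for 45143 of 46078 genes.

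The 4 group means were fitted together over the 16 libraries with edgeR 4.0.16 under R 4.3.3 (filterByExpr, TMM scaling, robust quasi-likelihood test, two-sided, Benjamini-Hochberg adjustment over 16101 genes, threshold 0.05), and the interaction was 1 contrast. The approach was tested on simulated data. CPM use TMM-scaled library sizes, and list scores a prior count of 2. Intervals are 95%, from the model. Alternatives were RLE scaling, DESeq2 1.42.0, limma-voom 3.58.1 with sample weights, other filters, a replicate block, marker scores as covariates, and leaving out libraries; the gene length slope and adipocyte score covariates were chosen once the data were known. The rule for named genes took any called, filled to 10 per direction by p at a mean log2 CPM of at least 1, 2 per list by p, and 28 chosen genes; other list members were named from their values. Some genes under this rule are not reported here. The members, the 35 lists and the rule were chosen with earlier results of these data known.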

Additional observations from a re-analysis of the deposited data

Results flagged for a closer look

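In groups of 4 libraries, a library was marked where its gap to the nearest other exceeded Dixon's 95% limit as a share of the group's range. Of 236 groups examined, over list scores and the genes named, 13 were marked, and chance marks about 1 in 20. Among the genes with the smallest p, on the log2 CPM scale, replicate 1 of the 5 Gy group stood high for Pcsk5, at 3.337 against 2.28 to 2.36 in the other 3 libraries, and replicate 2 of that group stood high for Npl, at 3.959 against 3.29 to 3.40. Replicate 1 of the QHII group stood low for Csf2rb, at 2.569 against 3.55 to 3.65. Gm10478 was high in replicate 4 of the untreated group, at 2.113 against 1.69 to 1.73, Ap5z1 was high in replicate 4 of the QHII group, at 4.682 against 4.50 to 4.52, and Wipi2 was low in replicate 1 of the untreated group, at 6.254 against 6.35 to 6.37.

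Among list scores, the endothelial score was high in replicate 1 of the 5 Gy group, at 4.985 against 4.33 to 4.43, and low in replicate 2 of the combined group, at 3.948 against 4.30 to 4.33, both in the direction of the negative interaction of that list. The neutrophil score was high in replicate 2 of the QHII group, at 1.191 against -0.82 to -0.49. The DNA replication score was 6.479 in replicate 2 of the untreated group, below 6.67 to 6.70, and 6.683 in replicate 1 of the QHII group, above 6.49 to 6.52. The score of GABA handling genes was 5.495 in replicate 3 of the QHII group, above 5.11 to 5.16, and the autophagy score was 5.48 in replicate 1 of the QHII group, above 5.41 to 5.42.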

How the results depend on the processing

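No gene was called in edgeR with RLE scaling, other filters, non-robust fitting, an adjusted p under 0.1, any marker covariate other than the skin score (1 call) or any library left out (0 to 0). DESeq2 called 61 and limma-voom with sample weights 497. The 1121 genes at an unadjusted p under 0.05 became 3294 in that limma-voom fit (54.6% negative, against 77.6%), 1808 with no filter on low counts, where more genes were tested, 1746 with the gene length slope as a covariate (54.0% negative), 483 with the adipocyte score (59.4% negative), 398 without the 5 libraries with skin transcripts, where fewer samples remained, and 669 to 1729 with 1 library left out. Negative values were the majority in every fit.

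With the replicate number as a block, 0 genes were called and 957 had an unadjusted p under 0.05 (smallest adjusted p = 0.107, against 0.445 in edgeR without it). Pairing by number was not assumed in the main fit, and these values do not settle it. Of 24 pairs with the same number in 2 groups, 12 correlated above 0.1 in their deviations from the group means (range -0.43 to 0.48). Their median correlation was 0.10, against -0.04 for pairs with different numbers. On average, 8 of 16 libraries correlated best with those of their own number.

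The interaction took the opposite sign for some of the genes named. This happened with the adipocyte score as a covariate, for Slc6a13 (0.12), Icam1 (0.0655), Casq1 (0.44), Ido1 (0.57), Cd274 (0.19), Mylpf (0.89), Slc12a2 (0.27), Bank1 (0.68), Stat2 (0.0939), Ifit2 (0.15), Gbp5 (0.36), Ciita (0.65), Pfkfb3 (0.00487), Trp63 (5.26), Mlana (-0.0625), Pkp1 (3.38), Pdcd1 (0.11), Bax (-0.16), Cd79b (0.24), Cd3e (0.48), Foxp3 (0.94), Ifng (0.28) and Gzmb (0.61). It also happened without the libraries with skin transcripts, for Klrk1 (0.25), Fasl (0.24), Cd8a (0.27), Prf1 (0.29), Gabrb1 (0.10), Pdcd1 (0.46), Cd79b (0.63), H2-K1 (0.24), Cd3e (0.37), Ifng (0.21) and Gzmb (0.75). Further changes of sign came in limma-voom with sample weights, for Bcl2a1b (-0.28), Bmf (0.16), Cdkn1a (0.0466), Gabarapl1 (0.094), Isg15 (-0.44), Cxcl10 (-0.44) and Mdm2 (0.16), with the gene length slope as a covariate, for Isg15 (-0.29), Cxcl10 (-0.26) and Mdm2 (0.0187), with the replicate block, for Gzmb (0.0447) and Cxcl10 (-0.0529), with the skin and muscle scores as covariates, for Gzmb (0.0169), with the muscle score as a covariate, for Gzmb (0.0489), with no filter on low counts, for Cxcl10 (-0.0503), on the linear CPM scale, for Gzmb (0.0506). Leaving out 1 library at a time moved Pdcd1 between -0.85 and 0.14, Bax between -0.0284 and 0.49, Cdkn1a between -0.16 and 0.0306, Cd3e between -0.66 and 0.0795, Gabarapl1 between -0.26 and 0.0107, Isg15 between -0.47 and 0.47, Gzmb between -0.40 and 0.52, Cxcl10 between -0.44 and 0.26, Mdm2 between -0.11 and 0.0712, so these 9 genes have no direction. The cause was not tested. The adipocyte score itself had an interaction of -4.75, so that covariate and the contrast being tested cannot be told apart.

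Depth limits genes of low count, above all in replicate 4 of the combined group, where 3 counts are 0.429 CPM. With 5 libraries left out the combined group holds 1 library, whose spread is assumed to be that of the others.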

Other observations

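DESeq2's 61 calls hold several genes outside the lists. Negative interactions in that tool were -2.77 for Gas6, the ligand of the TAM receptors that macrophages use to clear dead cells, -2.48 for Lox, which cross-links collagen, -2.01 for Sod3, the extracellular superoxide dismutase, -1.30 for Cd34, a marker of vessels and stromal progenitors, and -2.94 for Gpr183, which guides immune cells along oxysterols. Rbp4, the retinol carrier made by liver and fat, had -7.02. In 4 of the 61 the fitted value was below -10, among them Krt79 at -17.26, a skin keratin. These names were chosen after their values had been seen, and 57 of the 61 had an unadjusted p under 0.05 in edgeR. Of the 497 genes called by limma-voom with sample weights, 375 did.

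How alike the 2 drug effects looked also changed when the 5 libraries with skin transcripts were left out. Without them the Spearman rho across genes between the drug effect with and without radiation was 0.51, against 0.23 with all 16 libraries, and the same-sign share was 75.1% against 66.3%. The drug effect with radiation then rests on 1 combined library and 2 of 5 Gy. Whether the skin transcripts or another property of these libraries moved rho was not tested. Leaving out 1 library at a time gave rho between 0.06, without replicate 1 of the QHII group, and 0.37, without replicate 2 of the 5 Gy group.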
